A study of Mus musculus with 46 samples.

Results

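Genes of the p53, cell cycle arrest and senescence programme were followed in cell populations sorted from injured mouse kidneys. They were chosen by name as the rows Trp53, Cdkn1a, Cdkn1b, Cdkn2a, Cdkn2b, Mdm2, Ccng1, Ccnd1, Gdf15 and Btg2, which makes 10 of the 53465 genes in the expression table. Wild-type male C57BL/6 mice, 8 to 12 weeks old by the study's methods, had sham surgery, unilateral ureteric obstruction (UUO) or UUO that was later reversed by reimplanting the ureter (rUUO). The methods give day 2 and day 7 after UUO and 14 days after reversal as the times of culling, and the sample labels do not say which UUO day was sequenced. Proximal tubular (PT) cells were sorted by Lotus tetragonolobus lectin, macrophages by F4/80, endothelial cells by CD31 and stromal cells by PDGFRB. Values came from 3 sham, 4 UUO and 3 rUUO samples of PT cells, from 4, 4 and 3 of macrophages, from 4, 3 and 4 of endothelial cells and from 4 of each surgery for stromal cells. UUO replicate 2 of the PT cells has a title that names sham as well as UUO and was grouped by its treatment label.

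p53, the product of Trp53, is a transcription factor that is held at a low level by the ubiquitin ligase Mdm2 and accumulates when DNA or other cellular damage is sensed. It drives transcription of Cdkn1a (p21), which inhibits the cyclin-dependent kinases that push a cell from G1 into S phase, and of Mdm2 itself, Ccng1, Btg2 and Gdf15. Cyclin D1, the product of Ccnd1, acts on the opposite side by activating CDK4 and CDK6. Cdkn1b (p27), Cdkn2a (p16 and p19Arf) and Cdkn2b (p15) are further brakes on the cycle, and p16 and p21 are the usual transcript markers of senescence. In the injured kidney tubule, cells that arrest without completing repair are known to secrete inflammatory and fibrogenic factors.

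Expression was given as FPKM, in which the fragments of a gene are divided by its length and by the fragments mapped in that library, so the absolute depth is unknown. Relative depth, read from the steps between low values, ranged from 0.601 to 1.61 of the median sample. Each population carried its own defining marker in sham kidneys. Lrp2 had 190 to 229 FPKM in PT cells and at most 9.75 FPKM elsewhere, and Adgre1 had 186 to 247 FPKM in macrophages and at most 0.93 FPKM elsewhere. Pecam1 had 322 to 453 FPKM in endothelial cells, and Pdgfrb had 157 to 258 FPKM in stromal cells. The 37 mitochondrial genes took 68.9% to 75.6% of the FPKM of PT cells in sham, 58.7% to 66.4% in UUO and 68.1% to 71.3% after reversal, against 20.2% to 45.8% in the other populations. In stromal cells their share was 34.01% to 45.8% in sham and 21.5% to 26.4% in UUO. Over a list of 5 markers of the thick ascending limb and distal tubule, the summed level in PT cells was 30.4 to 45.8 FPKM in sham, 152 to 211 FPKM in UUO and 55.6 to 159 FPKM in rUUO. Most of that was Umod, with a mean of 17.4 FPKM in sham, 147 FPKM in UUO and 72.9 FPKM in rUUO, while Slc12a3 and Calb1 overlapped between sham and UUO. The summed level of 6 PT markers in the same samples was 1691 to 2302, 469 to 640 and 1047 to 1341 FPKM. Stromal sham samples held 364 to 565 FPKM of the distal markers against 29.5 to 61.6 FPKM in stromal UUO, while 5 stromal markers summed to 832 to 2144 FPKM in stromal sham and 5709 to 9598 FPKM in stromal UUO. Endothelial samples held 167 to 859 FPKM of the distal markers in sham, 62.3 to 216 FPKM in UUO and 65.3 to 230 FPKM in rUUO. Macrophage samples held 60.8 to 104 FPKM in sham, 13.6 to 39.4 FPKM in UUO and 33.2 to 69.9 FPKM in rUUO. The part of these shifts in the results below was not tested. In sorted bulk samples, fewer cells of a type and less RNA per cell cannot be told apart.

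Promoters were read for 9 of the 10 genes from RefSeq on GRCm38.p6, from 250 bases before to 50 bases after each start. The p53 half-site consensus was searched on both strands. It was found in the promoters of Trp53, Mdm2, Ccng1 and 1 of 2 starts of Cdkn1a (that at 29090979, not that at 29093769). It was not found in those of Btg2, Gdf15, Cdkn1b, Cdkn2a or Cdkn2b, and 8.356% of all 32851 promoters hold it. These 4 promoters and that of Btg2 are shown because the genes around them, which are all known p53 targets or p53 itself, did not move alike in PT cells. Capitals mark the half-sites, and for Btg2 the cyclic AMP response element TGACGTCA, which 1.79% of all promoters hold and Cdkn2b also carries. The AP-1 sequences TGACTCA and TGAGTCA were in none of the members' promoters and in 5.202% of all promoters. A match is a description of these letters only.
Cdkn1a, chr17:29090876-29090967, plus strand, half-sites starting 73 and 51 bases before the start: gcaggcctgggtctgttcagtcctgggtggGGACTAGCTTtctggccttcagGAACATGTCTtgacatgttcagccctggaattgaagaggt
Trp53, chr11:69580254-69580323, plus strand, half-site starting 75 bases before the start: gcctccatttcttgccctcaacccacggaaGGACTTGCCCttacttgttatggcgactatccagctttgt
Mdm2, chr10:117710905-117710974, minus strand, half-site starting 186 bases before the start: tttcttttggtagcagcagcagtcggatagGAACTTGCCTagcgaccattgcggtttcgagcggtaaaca
Ccng1, chr11:40755432-40755501, minus strand, half-site starting 185 bases before the start: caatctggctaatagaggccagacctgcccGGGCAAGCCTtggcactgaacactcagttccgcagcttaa
Btg2, chr1:134079284-134079351, minus strand, response element starting 166 bases before the start: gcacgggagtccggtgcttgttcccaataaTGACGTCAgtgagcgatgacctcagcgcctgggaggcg

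In sham kidneys, PT cells had the lowest levels of 6 of the 10 genes, Trp53, Mdm2, Cdkn1a, Cdkn1b, Ccnd1 and Btg2, with no overlap between their samples and those of any other population. The share of all genes with this order was not counted, so the 6 are not read as a trait of this set. Cdkn1a ranged from 1.43 to 4.49 FPKM in PT cells, from 41.5 to 76.3 FPKM in stromal cells, from 80.4 to 104 FPKM in macrophages and from 102 to 132 FPKM in endothelial cells. Macrophages and endothelial cells overlapped, and the other neighbours in that order did not. Trp53 followed a similar order, with 6.17 to 8.01 FPKM in PT cells against 37.8 to 73.2 FPKM over the other populations, which overlapped one another in part. Btg2, an antiproliferative coregulator of transcription and mRNA decay, had 1.01 to 2.10 FPKM in PT cells. It had 14.2 to 17.7 FPKM in stromal cells and 17.7 to 27.2 FPKM in endothelial cells, which met at their edges, and 49.6 to 77.4 FPKM in macrophages. Ccnd1 was more even than Cdkn1a, Trp53 and Btg2, with 29.8 to 35.6 FPKM in PT cells, 40.0 to 53.3 FPKM in stromal cells, 66.7 to 126 FPKM in endothelial cells and 104 to 142 FPKM in macrophages. Ccng1, cyclin G1, was not lowest in PT cells: its 20.8 to 28.8 FPKM there overlapped macrophages (15.8 to 26.0 FPKM) and stromal cells (24.9 to 26.7 FPKM) and lay above endothelial cells (12.5 to 16.7 FPKM). These levels are a description, and part of the order rests on the mitochondrial share, which lowers the FPKM of the other genes in PT samples. When the FPKM outside the mitochondrial genes were rescaled to a total of 1000000 in each sample, an alternative added after seeing the data, Trp53, Cdkn1a, Cdkn1b and Btg2 were still lowest in PT cells without overlap. Mdm2 in PT cells (27.9 to 54.1) then overlapped endothelial cells and macrophages, and Ccnd1 in PT cells (132 to 141) lay above stromal cells (107 to 130), which turns the order of that pair. Ccng1, at 77.1 to 118, was then highest in PT cells.

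**Figure D1:**
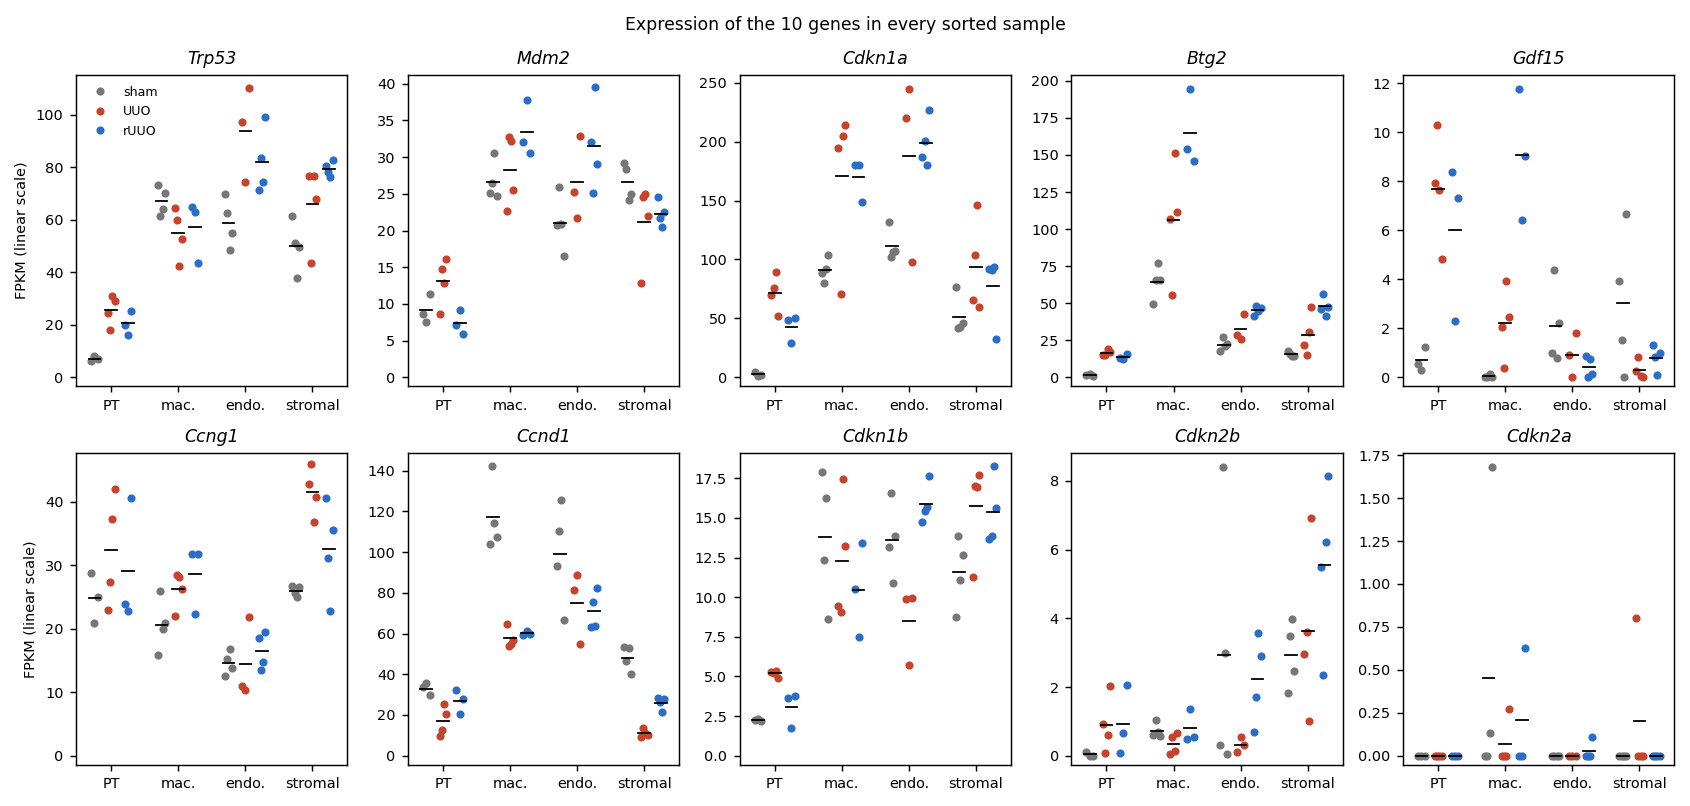
FPKM (linear axis, a scale for each panel) of the 10 genes in every sample, grouped by population (PT cells, macrophages, endothelial cells, stromal cells) and coloured by surgery, with 1 point per sample and a bar at the group mean. Cdkn1a in PT cells moves from 1.43 to 4.49 FPKM in sham to 51.8 to 89.5 FPKM in UUO, while Ccnd1 falls to 9.24 to 13.6 FPKM in stromal UUO samples.

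In PT cells, obstruction was accompanied by higher Trp53, Cdkn1a, Btg2, Gdf15 and Cdkn1b and by lower Ccnd1, which made 6 of the 8 members tested (5 higher and 1 lower), while Mdm2 and Ccng1 did not pass. The test was limma on log2(FPKM + 1) over the 11416 genes whose mean over the PT samples reached 1 FPKM, and a gene passed at an adjusted p (Benjamini-Hochberg) under 0.05. Of all genes tested 32.8% passed, 27.9% higher and 4.91% lower than sham, and the median change of all genes was 0.51. The median of the 8 tested members was 1.31. Gdf15, at 0.31 to 1.23 FPKM in sham, passed the filter on low values through its injured samples, so its place in these counts is no evidence of its own, and 5 of the other 7 tested members passed. The 6 calls were also made without UUO replicate 2, the sample with the ambiguous title.

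Trp53 (ENSMUSG00000059552, chromosome 11, 69580359 to 69591873) had 6.17, 8.01 and 7.07 FPKM in the PT sham samples, 24.6, 18.1, 31.1 and 28.9 FPKM in UUO and 20.1, 16.3 and 25.4 FPKM in rUUO. Every injured sample lay above every sham sample, and UUO and rUUO overlapped. The mean rose 3.62-fold in UUO (log2 change 1.70, standard error 0.24, limma adjusted p = 0.000143), and was still 1.40 above sham in rUUO (standard error 0.26, adjusted p = 0.00358). Mdm2 (ENSMUSG00000020184, chromosome 10, 117688875 to 117710758), the p53 ligase, did not follow. It had 8.67, 7.54 and 11.4 FPKM in sham, 8.68, 14.8, 12.8 and 16.2 FPKM in UUO and 7.18, 9.24 and 5.91 FPKM in rUUO. Sham and UUO overlapped, and the log2 change was 0.45 (standard error 0.27, limma adjusted p = 0.208), close to the median of all genes, and quantile normalization turned it to −0.05. The rUUO mean was 7.44 FPKM, below the sham mean of 9.21 FPKM, with overlapping samples (adjusted p = 0.64).

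Cdkn1a (ENSMUSG00000023067, chromosome 17, 29090979 to 29100722) changed most of the members tested. It had 4.49, 1.43 and 2.28 FPKM in PT sham, 69.8, 75.5, 89.5 and 51.8 FPKM in UUO and 48.7, 29.4 and 50.1 FPKM in rUUO. The 3 groups did not overlap, with sham lowest and UUO highest. The mean rose 26.2-fold in UUO (log2 change 4.34, standard error 0.30, limma adjusted p = 1.45e-07), and the rUUO mean was 15.6 times that of sham (log2 change 3.60, standard error 0.32, adjusted p = 6.27e-06). Between rUUO and UUO the log2 change was −0.74 and did not pass (standard error 0.30, adjusted p = 0.172). In sham, PT samples had overlapped neither those of stromal cells nor those of macrophages. After obstruction they overlapped the stromal UUO samples (59.7 to 146 FPKM). They overlapped the macrophage UUO samples (70.9 to 214 FPKM) only through macrophage UUO replicate 2. The other macrophage UUO samples, at 195 to 214 FPKM, lay above all PT UUO samples.

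Btg2 (ENSMUSG00000020423, chromosome 1, 134075170 to 134079120) had 1.49, 2.10 and 1.01 FPKM in PT sham, 14.98, 15.2, 19.4 and 17.2 FPKM in UUO and 13.1, 12.3 and 15.6 FPKM in rUUO. The injured samples were all far above sham and overlapped each other. Its mean rose 10.9-fold in UUO (log2 change 2.82, standard error 0.24, limma adjusted p = 9.79e-07) and was 8.93 times sham in rUUO (log2 change 2.55, standard error 0.26, adjusted p = 1.82e-05). Gdf15 (ENSMUSG00000038508, chromosome 8, 70629393 to 70632456), a secreted cytokine of the TGF-beta superfamily that is released by stressed cells, had 0.55, 0.31 and 1.23 FPKM in sham, 7.94, 10.3, 7.63 and 4.84 FPKM in UUO and 8.38, 2.29 and 7.30 FPKM in rUUO. The lowest injured sample, rUUO replicate 3, was still above the highest sham sample. The log2 change was 2.35 in UUO (standard error 0.38, limma adjusted p = 0.000382) and 1.94 in rUUO (standard error 0.41, adjusted p = 0.00852). In the fit without the filter on low values, which does not depend on the injured samples to admit a gene, the first passed (adjusted p = 0.00531) and the second did not (adjusted p = 0.0586). Ccng1 (ENSMUSG00000020326, chromosome 11, 40748552 to 40755311) had 20.8 to 28.8 FPKM in sham, 22.9 to 42.0 FPKM in UUO and 22.8 to 40.6 FPKM in rUUO. These ranges overlapped, and the log2 change in UUO was 0.34 (standard error 0.27, limma adjusted p = 0.332), below the median of all genes.

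Ccnd1 (ENSMUSG00000070348, chromosome 7, 144929931 to 144939925) went the other way, with 33.6, 35.6 and 29.8 FPKM in PT sham, 9.81, 12.6, 25.3 and 20.7 FPKM in UUO and 32.2, 20.7 and 27.6 FPKM in rUUO. All UUO samples lay below all sham samples, and the rUUO samples overlapped both. The UUO mean was 0.519 times that of sham (log2 change −0.99, standard error 0.29, limma adjusted p = 0.0187), and in rUUO the change was −0.31 and did not pass (standard error 0.31, adjusted p = 0.63). The UUO call rests on few samples: without sham replicate 1, sham replicate 2 or UUO replicate 1 the adjusted p was 0.0534, 0.0563 and 0.0501, and without the filter on low values it was 0.0668.

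Cdkn1b (ENSMUSG00000003031, chromosome 6, 134920401 to 134925513) had 2.24, 2.34 and 2.21 FPKM in PT sham, 5.30, 5.24, 5.33 and 4.93 FPKM in UUO and 3.64, 1.76 and 3.76 FPKM in rUUO. The UUO samples were tightly grouped above all others. The mean rose 2.30-fold (log2 change 0.93, standard error 0.27, limma adjusted p = 0.0193), against a median of 0.51 for all genes. It fell to 0.30 under quantile normalization (adjusted p = 0.465) and to 0.69 after rescaling without mitochondrial genes (adjusted p = 0.078), and the adjusted p was 0.0548 without sham replicate 1 and 0.0613 without sham replicate 4. Neither INK4 gene reached the mean of 1 FPKM in PT cells. Cdkn2b (ENSMUSG00000073802, chromosome 4, 89306289 to 89311032) had 0.12, 0 and 0 FPKM in sham, 0.92, 0.09, 0.59 and 2.03 FPKM in UUO and 0.07, 0.65 and 2.06 FPKM in rUUO, and was not tested. Cdkn2a (ENSMUSG00000044303, chromosome 4, 89274471 to 89294653) was listed at 0 in all 10 PT samples. A gene-level FPKM does not separate its p16 and p19Arf transcripts.

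After reversal Trp53, Cdkn1a, Gdf15 and Btg2 were still above sham in PT cells. Between rUUO and UUO, 0 of the 8 members passed limma with adjustment, where 3.83% of all genes did. Of the 8 members, 4 (Cdkn1a, Cdkn1b, Mdm2 and Ccnd1) had an unadjusted p under 0.05, as did 2448 of all 11416 genes tested. A call that misses the threshold in so few samples does not show that the levels were equal. Between rUUO and sham, 4 members passed, Trp53, Cdkn1a, Gdf15 and Btg2, all of them higher, against 7.46% of all genes (6.52% higher). Gdf15 passed the filter on low values through its injured samples, so its place in this count is no evidence of its own. In the fit without that filter 3 members passed, Trp53, Cdkn1a and Btg2. The 2 comparisons with sham share the same 3 sham samples. All 4 genes also passed in both comparisons with sham after quantile normalization, which brought the share of higher genes among those that passed in UUO from 85% to 50%, and after rescaling without mitochondrial genes. Under quantile normalization the UUO changes were 3.87 for Cdkn1a, 2.26 for Btg2, 1.69 for Gdf15 and 1.23 for Trp53.

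**Figure D2:**
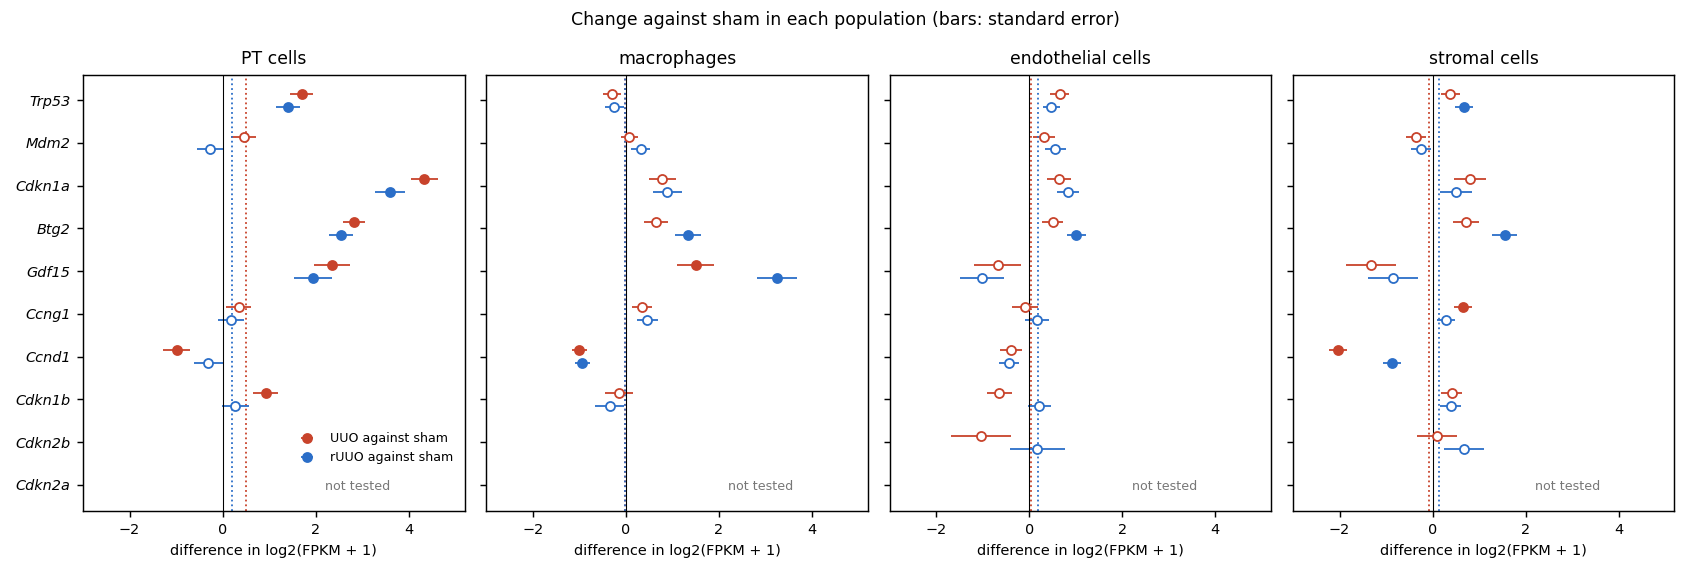
Difference in log2(FPKM + 1) against sham for UUO (red) and rUUO (blue) in each population, with bars for the standard error, filled points for genes with limma adjusted p under 0.05 and dotted lines at the median of all genes tested. In PT cells Cdkn1a (4.34 and 3.60), Btg2 (2.82 and 2.55), Gdf15 and Trp53 lie to the right for both surgeries, whereas Ccnd1 lies to the left, reaching −2.04 in stromal UUO samples. Genes without points had a mean under 1 FPKM in that population.

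In macrophages Ccnd1 was lower after both surgeries. Of 8 members tested, Ccnd1 and Gdf15 passed between UUO and sham, against 4.99% of all genes, and 3 passed between rUUO and sham (Ccnd1 lower, Gdf15 and Btg2 higher), against 3.44%. Between rUUO and UUO 0 members passed limma with adjustment and 0% of all genes did, with 2 members (Gdf15 and Btg2) and 945 genes at an unadjusted p under 0.05. Ccnd1 had 104, 142, 114 and 108 FPKM in sham, 64.9, 53.9, 54.9 and 56.8 FPKM in UUO and 59.5, 61.5 and 59.9 FPKM in rUUO. The injured samples were tightly grouped well below sham, with log2 changes of −1.003 (standard error 0.16, limma adjusted p = 0.00223) and −0.94 (standard error 0.17, adjusted p = 0.00685). Gdf15 passed the filter on low values through its injured samples, so its place in these counts is no evidence of its own. It was listed at 0 in 3 sham samples and at 0.15 FPKM in the other. It had 2.06, 0.40, 3.91 and 2.47 FPKM in UUO and 11.8, 6.43 and 9.04 FPKM in rUUO, so that the 3 groups did not overlap and rUUO was highest. The differences from sham on the log2(FPKM + 1) scale were 1.497 (standard error 0.39, limma adjusted p = 0.0441) and 3.25 (standard error 0.43, adjusted p = 0.000534). The first passed in only 1 of the 8 fits that left out a sample, that without UUO replicate 2, with adjusted p from 0.00773 to 0.117. Without the filter on low values the UUO difference did not pass (adjusted p = 0.116) and the rUUO difference did (adjusted p = 0.00584). The members called in that fit were Ccnd1 alone in UUO, and Ccnd1 and Gdf15 in rUUO.

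Btg2 in macrophages had 49.6, 65.8, 77.4 and 65.7 FPKM in sham, 107, 55.4, 152 and 112 FPKM in UUO and 154, 195 and 146 FPKM in rUUO. UUO replicate 2 lay among the sham samples and the other 3 UUO samples above them. The log2 change was 1.34 in rUUO (standard error 0.28, limma adjusted p = 0.0163), and the adjusted p was over 0.05 without sham replicate 1 (0.0545), rUUO replicate 1 (0.0598) or rUUO replicate 4 (0.0907) and without the filter on low values (0.0644). Cdkn1a in macrophages showed the same split, with 88.7, 80.4, 91.7 and 104 FPKM in sham, 195, 70.9, 205 and 214 FPKM in UUO and 180, 180 and 149 FPKM in rUUO. Its UUO change of 0.78 did not pass (standard error 0.29, limma adjusted p = 0.142) but was 1.16 without UUO replicate 2 (adjusted p = 0.000337), and that of Btg2 went from 0.64 (adjusted p = 0.186) to 0.92 (adjusted p = 0.0127). That library had 37.8% mitochondrial FPKM, where the other macrophage samples had 20.4% to 28.01%. In rUUO the Cdkn1a change was 0.89 with no overlap with sham (standard error 0.31, adjusted p = 0.151). Trp53 in macrophages was 61.5 to 73.2 FPKM in sham, 42.4 to 64.5 FPKM in UUO and 43.7 to 64.7 FPKM in rUUO, with log2 changes of −0.30 and −0.25 that did not pass (adjusted p = 0.404 and 0.6). Mdm2 in macrophages had 24.6 to 30.5 FPKM in sham, 22.6 to 32.8 FPKM in UUO and 30.51 to 37.7 FPKM in rUUO, which lay just above sham without passing (log2 change 0.32, adjusted p = 0.487). Ccng1 (15.8 to 31.8 FPKM over all macrophage samples) and Cdkn1b (7.5 to 17.9 FPKM) overlapped between all groups, and Cdkn2b, at 0.06 to 1.35 FPKM, was under the filter. A summed level of 4 neutrophil markers went with obstruction in these samples, at 3.15 to 8.10 FPKM in sham, 10.7 to 90.7 FPKM in UUO and 5.56 to 23.0 FPKM in rUUO, and 4 lymphocyte markers at 1.66 to 2.13, 3.37 to 51.5 and 6.08 to 22.6 FPKM. Their part in the macrophage results was not tested.

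In endothelial cells only Btg2 passed, and only after reversal. Between UUO and sham 0 of 9 members passed limma with adjustment, where 1.98% of all genes did. At an unadjusted p under 0.05 were 4 members (Trp53, Cdkn1a, Cdkn1b and Btg2) and 1788 of all 13393 genes tested. For rUUO against UUO 0 members passed against 0.0597% of all genes, with 2 members (Cdkn1b and Btg2) and 1369 genes at an unadjusted p under 0.05. Between rUUO and sham 5 members (Trp53, Cdkn1a, Mdm2, Gdf15 and Btg2) and 1895 genes had an unadjusted p under 0.05. With adjustment 1 member, Btg2, passed as higher, against 1.77% of all genes (1.40% higher). Its samples had 17.7, 27.2, 21.1 and 22.6 FPKM in sham, 28.5, 25.9 and 42.8 FPKM in UUO and 41.4, 48.2, 44.8 and 46.5 FPKM in rUUO. Sham and rUUO did not overlap, and the UUO samples bridged them. The log2 change was 1.01 (standard error 0.21, limma adjusted p = 0.0207), which was over the threshold under quantile normalization (adjusted p = 0.0517) and without sham replicate 1 (0.0738), sham replicate 3 (0.0577) or rUUO replicate 2, 4 or 6 (0.0683, 0.067 and 0.0587). Trp53 had 69.6, 62.4, 48.4 and 54.99 FPKM in sham and 97.1, 74.5 and 110 FPKM in UUO, with no overlap (log2 change 0.66, standard error 0.20, limma adjusted p = 0.127). Cdkn1a had 102 to 132 FPKM in sham, 220, 245 and 97.5 FPKM in UUO and 180 to 227 FPKM in rUUO. UUO replicate 4 lay below the sham samples, and without it the UUO change of 0.64 (adjusted p = 0.276) became 1.05 (adjusted p = 0.00665). Cdkn1b was the only member whose UUO samples (9.87, 5.73 and 9.93 FPKM) lay below all sham (10.9 to 16.6 FPKM) and all rUUO samples (14.8 to 17.6 FPKM), with log2 changes that did not pass (−0.64, adjusted p = 0.288 against sham). In rUUO, Cdkn1a (0.83, adjusted p = 0.103) and Trp53 (71.2 to 99.2 FPKM, 0.47, adjusted p = 0.263) lay above all sham samples without passing. Ccnd1 had 66.7 to 126 FPKM in sham, 54.7 to 88.6 FPKM in UUO and 63.2 to 82.3 FPKM in rUUO, overlapping throughout (−0.39 and −0.44 against sham, adjusted p = 0.516 and 0.378). Mdm2 ranged from 16.5 to 39.6 FPKM and Ccng1 from 10.4 to 21.8 FPKM over all endothelial samples. Gdf15 had 0.81 to 4.38 FPKM in sham and at most 1.79 FPKM after injury, and Cdkn2b was widely spread in sham, at 0.30, 8.40, 2.99 and 0.05 FPKM. Neither passed in any endothelial comparison.

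In stromal cells Ccnd1 was the member that moved most. Of 9 members tested, 2 passed between UUO and sham (Ccng1 higher and Ccnd1 lower) against 26.4% of all genes, 1 between rUUO and UUO (Ccnd1 higher) against 4.17%, and 3 between rUUO and sham (Trp53 and Btg2 higher, Ccnd1 lower) against 17.2%. The UUO share of members was thus near the background. Ccnd1 had 53.3, 46.3, 53.03 and 40.0 FPKM in sham, 9.24, 13.6, 10.9 and 10.2 FPKM in UUO and 28.6, 26.3, 21.3 and 27.7 FPKM in rUUO. The 3 groups were fully apart, with UUO lowest and rUUO between. The UUO mean was 0.228 times that of sham (log2 change −2.04, standard error 0.19, limma adjusted p = 1.71e-06). The rUUO mean was 2.37 times that of UUO (log2 change 1.18, adjusted p = 0.00421) and 0.539 times that of sham (−0.87, adjusted p = 0.0052). All 3 calls were made in each of the 8 fits that left out a sample, and under quantile normalization, the other pseudocount, no filter and rescaling. The fall went with the lower distal tubule and higher stromal marker sums of stromal UUO samples given above, and their part in it was not tested.

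The other stromal calls were smaller. Ccng1 had 26.7, 25.7, 24.9 and 26.6 FPKM in sham and 42.8, 45.9, 36.7 and 40.7 FPKM in UUO, without overlap (log2 change 0.65, standard error 0.19, limma adjusted p = 0.019). The adjusted p was 0.0518 under quantile normalization, 0.0866 after rescaling without mitochondrial genes and 0.0513 without UUO replicate 2. Btg2 had 17.7, 16.0, 14.6 and 14.2 FPKM in sham, 21.7, 15.1, 30.5 and 47.4 FPKM in UUO and 46.2, 55.9, 41.6 and 47.7 FPKM in rUUO. The rUUO samples were above all sham samples, and the UUO samples spread from one to the other. Its log2 change was 1.55 in rUUO (standard error 0.27, limma adjusted p = 0.000828) and 0.72 in UUO (adjusted p = 0.0625), which was 0.98 without UUO replicate 2 (adjusted p = 0.00976). Between rUUO and UUO it was 0.83 (adjusted p = 0.105), and 1.10 without UUO replicate 4 (adjusted p = 0.0218). Trp53 had 37.8 to 61.3 FPKM in sham, 43.6 to 76.6 FPKM in UUO and 76.5 to 82.7 FPKM in rUUO. In UUO the change was 0.38 (adjusted p = 0.179) and, without UUO replicate 2, 0.57 (adjusted p = 0.0356). Its rUUO change of 0.68 passed (standard error 0.20, limma adjusted p = 0.0286), but it was 0.45 and past no threshold under quantile normalization (adjusted p = 0.154) and after rescaling (adjusted p = 0.153), and 7 of 8 fits that left out a sample lost the call, the highest adjusted p being 0.0894 without sham replicate 3. Cdkn1a had 76.3, 41.5, 42.6 and 46.2 FPKM in sham, 65.7, 104, 146 and 59.7 FPKM in UUO and 92.2, 90.9, 93.4 and 32.6 FPKM in rUUO, with overlaps throughout and a UUO change of 0.80 (standard error 0.35, limma adjusted p = 0.105). Gdf15 had 3.91, 1.54, 0 and 6.67 FPKM in sham, 0.27, 0.82, 0.06 and 0 FPKM in UUO and 0.08 to 1.33 FPKM in rUUO, and its UUO difference of −1.32 did not pass (adjusted p = 0.0829). It was −1.87 without sham replicate 3, the sham sample listed at 0 (adjusted p = 0.00798). Cdkn2b ranged from 1.83 to 3.98 FPKM in sham, from 1 to 6.92 FPKM in UUO and from 2.36 to 8.14 FPKM in rUUO. Mdm2 (24.1 to 29.2, 12.8 to 25.04 and 20.4 to 24.5 FPKM in the same order) and Cdkn1b (8.72 to 13.9, 11.3 to 17.7 and 13.7 to 18.3 FPKM) also overlapped between sham and UUO and did not pass.

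Cdkn2a was at or near 0 throughout. It was listed at 0 in most samples of every population, and its values above 0 were 0.13 and 1.68 FPKM in 2 macrophage sham samples, 0.27 FPKM in 1 macrophage UUO sample, 0.63 FPKM in 1 macrophage rUUO sample, 0.11 FPKM in 1 endothelial rUUO sample and 0.80 FPKM in 1 stromal UUO sample. Without counts these zeros carry no detection limit. No test was made of this gene.

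The UUO changes of PT cells differed from those of the other populations in a test of the difference itself, an interaction contrast in limma over all 44 samples and 14332 genes. Against macrophages 4 of 9 members tested passed, where 15.5% of all genes did, against endothelial cells 5 of 9 (11.1%) and against stromal cells 6 of 9 (29.2%). The median difference of all genes was 0.45, 0.40 and 0.51, so a positive difference is read against those. Cdkn1a rose more in PT cells by 3.56 on the log2 scale than in macrophages, by 3.70 than in endothelial cells and by 3.54 than in stromal cells (limma adjusted p = 7.77e-07, 9.25e-07 and 2.99e-07). This holds for the log2 scale and not for FPKM gained. Its mean went from 2.73 to 71.65 FPKM in PT cells, 91.24 to 171.1 in macrophages, 111.8 to 187.4 in endothelial cells and 51.64 to 93.91 in stromal cells. The differences for Btg2 were 2.18, 2.31 and 2.10 (adjusted p = 2.14e-05, 1.85e-05 and 1.48e-05) and those for Trp53 2.00, 1.04 and 1.32 (adjusted p = 1.51e-06, 0.0135 and 0.000369). Of these, that of Trp53 against endothelial cells did not pass under quantile normalization (0.59, adjusted p = 0.252) or without endothelial UUO replicate 2 (adjusted p = 0.0569). Gdf15 differed from endothelial cells by 3.03 (adjusted p = 0.00182) and from stromal cells by 3.67 (adjusted p = 3.31e-05), but not beyond the threshold from macrophages (0.86, standard error 0.66, adjusted p = 0.412). Gdf15 is under 1 FPKM in PT sham, and without the filter the first 2 passed as well (adjusted p = 0.00534 and 0.000134). Cdkn1b differed from macrophages by 1.07 (adjusted p = 0.0243) and from endothelial cells by 1.57 (adjusted p = 0.00155). The first did not pass under quantile normalization (0.46, adjusted p = 0.385), after rescaling (adjusted p = 0.0829) or in 5 of the fits that left out a sample. Ccnd1 changed by 0.01 more in PT cells than in macrophages (standard error 0.30, adjusted p = 0.992) and by 1.05 more than in stromal cells (adjusted p = 0.00805), where its fall was larger. Mdm2 differed from stromal cells by 0.82 (adjusted p = 0.0329), which was 0.40 under quantile normalization (adjusted p = 0.331). The Mdm2 call was also lost without UUO replicate 2 of the PT cells (0.75, adjusted p = 0.0644) and without 6 other samples in turn (adjusted p up to 0.107). Cdkn2b, at 1.81 against endothelial cells, did not pass (adjusted p = 0.0891), but did without endothelial sham replicate 1 or 4 (adjusted p = 0.0409 and 0.0217). The 3 contrasts share the PT samples, and all are on the log2(FPKM + 1) scale, which understates changes of genes as low as Gdf15.

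**Figure D3:**
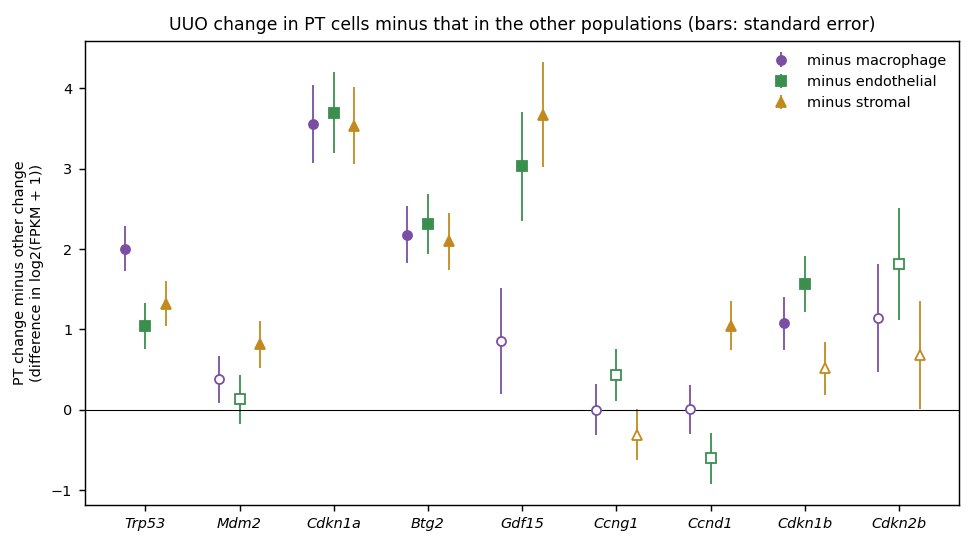
The log2(FPKM + 1) change between UUO and sham in PT cells minus that in macrophages (circles), endothelial cells (squares) and stromal cells (triangles), with bars for the standard error and filled symbols for adjusted p under 0.05. Cdkn1a (3.54 to 3.70) and Btg2 (2.10 to 2.31) lie well above 0 against all 3 populations, and Ccng1 lies at 0 against macrophages with no filled symbol.

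The 6 lists of other genes of the pathway were counted beside the members. The lists were chosen with earlier results of these data known, so their shares are descriptions in every population. Over the lists together 32.3% of the 65 genes tested in PT UUO passed, against 32.8% of all genes, so the PT counts were at the background as a whole. In PT cells after UUO, 3 of 19 tested p53 target genes rose, among them Gadd45a, a stress-induced inhibitor of the G2 transition (log2 change 3.03, limma adjusted p = 3.56e-06), and Rrm2b, a ribonucleotide reductase subunit used in DNA repair (1.51, adjusted p = 0.00378). The median of the list was 0.28, below the 0.51 of all genes, and the share is below the 27.9% of all genes that were higher. Of 11 p53 regulators and damage kinases, 2 rose, Chek2 (1.55, adjusted p = 0.0441) and the Mdm2 relative Mdm4 (1.20, adjusted p = 0.0055). Of 11 other CDK inhibitors, G1 cyclins, CDKs and pocket proteins, 4 rose, including Cdkn1c (1.53, adjusted p = 0.0196) and Cdk4 (1.23, adjusted p = 0.00677). In the BTG/TOB family, to which Btg2 belongs, 3 of 4 rose, including Btg1 (2.77, adjusted p = 1.56e-06) and Btg3 (2.35, adjusted p = 6.54e-05). Of 14 secretory and nuclear envelope genes linked to senescence, 6 rose and 1 fell. Timp1, an inhibitor of matrix metalloproteinases (2.31, adjusted p = 0.000772), and the chemokine Ccl2 (2.28, adjusted p = 0.000106) rose most, and Igfbp5 fell by 0.92 (adjusted p = 0.00403). Of 7 cycling cell markers 2 rose, Ccnb1 (1.12, adjusted p = 0.0391) and Pcna (1.06, adjusted p = 0.00617). Of the genes named here Chek2, Btg3, Timp1, Ccl2 and Ccnb1 had a sham mean under 1 FPKM and passed the filter through injured samples, as did 5 of the 7 secretory genes that passed, so these counts are descriptions only.

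Btg1 and Btg3 came down on reversal while Btg2 did not pass. In PT cells, rUUO against UUO, Btg3 fell by 1.98 (limma adjusted p = 0.00446) and Btg1 fell by 1.14 (adjusted p = 0.0254), and no other gene of the 6 lists passed. Of 19 p53 targets 5 had an unadjusted p under 0.05, as did 2448 of all 11416 genes tested. Btg2 changed by −0.27 (standard error 0.24, adjusted p = 0.549). Whether Btg2 differs from its relatives in this was not tested. Over the lists together 3.08% of the 65 genes tested passed in rUUO against UUO, where 3.83% of all genes did. Between rUUO and sham in PT cells 1 of 19 p53 targets (Gadd45a, 2.07, adjusted p = 0.000674), 1 of 4 BTG/TOB genes (Btg1, 1.63, adjusted p = 0.00124) and 3 of 14 secretory genes passed, all higher, with Cxcl1 (2.25, adjusted p = 0.000856) and Ccl2 (1.96, adjusted p = 0.00208) at the head. All 3 of the secretory genes had a sham mean under 1 FPKM. Over the lists together 7.69% of the 65 genes tested passed in this comparison, against 7.46% of all genes. None of the other 3 lists had a gene past the threshold in limma. An unadjusted p under 0.05 was found for 1 of 11 regulators, 3 of 11 G1 genes and 0 of 7 cycling markers, and for 2453 of all 11416 genes tested.

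In stromal cells 42.5% of the 80 genes of the lists passed in UUO, against 26.4% of all genes (13.4% higher and 13% lower). Of the cycling markers 6 of 10 rose, headed by Ccnb2 (3.42, limma adjusted p = 8.69e-05) and Birc5 (2.55, adjusted p = 0.0059), with a list median of 1.81 against −0.07 for all genes. Of these 6, Ccnb2, Birc5, Bub1 and Ccna2 had a sham mean under 1 FPKM and passed the filter through injured samples. Whether the list moved otherwise than in PT cells was not tested. Between rUUO and UUO, Ccnb2 fell by 2.38 (adjusted p = 0.0145). These are the stromal samples in which Ccnd1 was lowest. Of 26 p53 targets tested, 7 rose and 3 fell in stromal UUO, with Ckap2 (2.09, adjusted p = 0.0144) and Phlda3 (1.54, adjusted p = 0.00537) up and Xpc (−1.76, adjusted p = 0.000163) and Perp (−1.41, adjusted p = 0.00634) down. The 3 that fell are near the share of all genes that were lower. Ckap2, Brca1 and Cdkn3 also had a sham mean under 1 FPKM. Ckap2 is also a spindle protein of dividing cells, and Perp is an epithelial junction protein. Of 12 regulators 1 rose (Brca1, 1.73, adjusted p = 0.0143) and 4 fell, led by Hipk2 (−2.21, adjusted p = 6.54e-06) and Ppm1d (−1.07, adjusted p = 0.0497), which is on the target list too. Of 13 other G1 genes 2 rose, Cdkn3 (1.54, adjusted p = 0.0176) and Cdk4 (0.70, adjusted p = 0.00629), and Rb1 fell by 0.80 (adjusted p = 0.0222). Of the 4 BTG/TOB genes Tob1 fell by 1.17 (adjusted p = 0.00695), and of 16 secretory genes 9 rose, with Timp1 (5.56, adjusted p = 6.08e-07) and Mmp3 (2.88, adjusted p = 0.000177) highest, and Igfbp5 fell by 2.64 (adjusted p = 1.03e-05). In stromal rUUO against sham 23.8% of the 80 list genes passed, against 17.2% of all genes (11.6% higher and 5.57% lower). Of 26 targets 4 were higher, near that share (Fas most, 2.27, limma adjusted p = 0.000414), and Xpc was lower by 1.04. Of 12 regulators 2 were higher and 1 lower, of 13 other G1 genes 4 were higher, and of 4 BTG/TOB genes 0 passed. Of 16 secretory genes 6 were higher and 1 lower. Of 10 cycling markers 0 passed limma, with 3 at an unadjusted p under 0.05, as were 4037 of all 14033 genes tested.

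In macrophages 12.5% of the 80 list genes tested passed in UUO, against 4.99% of all genes, and in endothelial cells 12.2% of 74, against 1.98%. In rUUO against sham the list shares were 15% in macrophages, against 3.44% of all genes, and 6.76% in endothelial cells, against 1.77%. These shares are descriptions only, since the lists were chosen with earlier results of these data known. In macrophages, of 14 other G1 genes, with a list median of 0.38, the 2 that passed were lower: Ccnd2 fell by 1.35 (limma adjusted p = 0.0242) and Cdk6 fell by 0.98 (adjusted p = 0.0186) in UUO, and both were lower than sham in rUUO (−1.58 and −1.25). Plk2, a p53 target kinase, rose by 1.29 in UUO (adjusted p = 0.00465) and by 2.13 in rUUO (adjusted p = 0.000178). Of 25 targets it was the only 1 past the threshold in UUO, and Plk3 (1.51, adjusted p = 0.0293) joined it in rUUO. Btg1 was higher by 1.16 and 1.26, and 2 of 10 cycling markers rose in UUO, Mki67 (1.17, adjusted p = 0.0204) and Pcna (0.71, adjusted p = 0.0212). Of 16 secretory genes 3 rose and 1 fell in UUO, with Ccl2 up by 2.73 and Mmp12 down by 2.56, and 6 were higher in rUUO, Il1a most (3.12, adjusted p = 0.000465, with a sham mean under 1 FPKM). In endothelial cells 3 of 26 p53 targets rose in UUO, among them the death receptor Tnfrsf10b (2.17, adjusted p = 0.000592) and Plk2 (1.56, adjusted p = 0.000328), with 4 of 14 secretory genes higher (among them Ccl2, 2.42, adjusted p = 0.00687, also under 1 FPKM in sham) and 1 lower (Igfbp5), and 1 of 9 cycling markers higher (Birc5, 2.30, adjusted p = 0.00662, under 1 FPKM in sham). In rUUO, Plk2 (1.43) and Tnfrsf10b (1.15) were 2 of 26 targets past the threshold. Of 10 regulators 1 and of 14 secretory genes 2 were also higher than sham, and the remaining lists had no call.

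**Figure D4:**
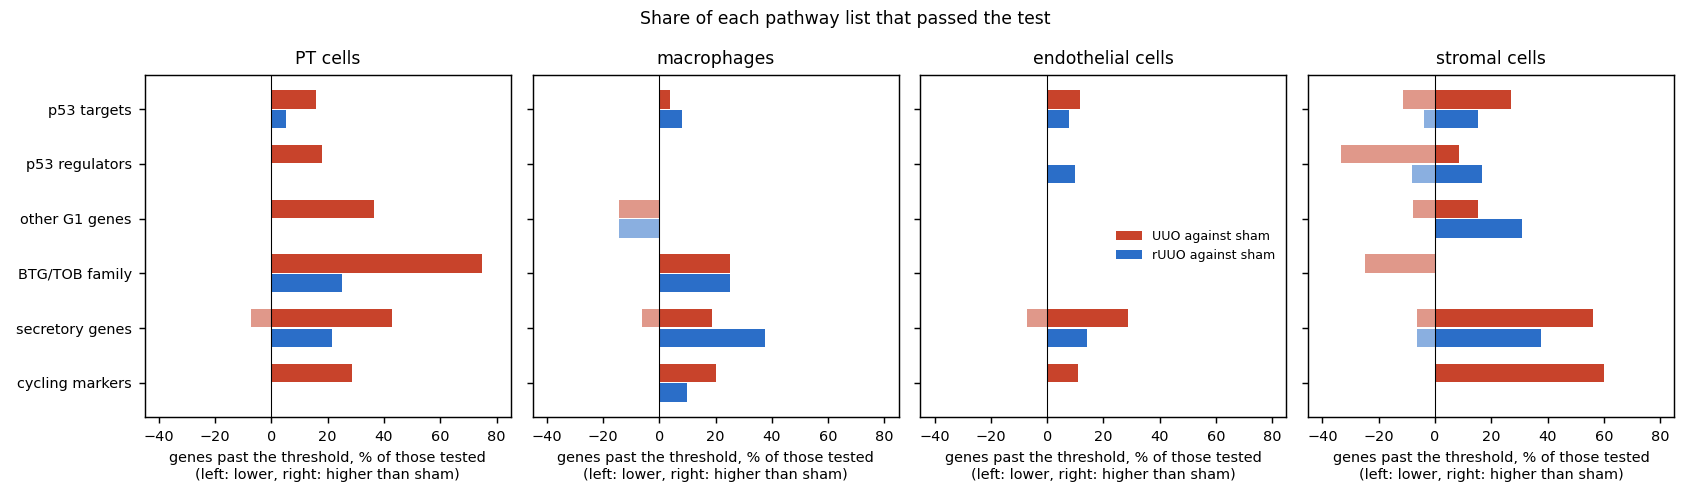
Share of the tested genes of each pathway list with limma adjusted p under 0.05 in UUO (red) or rUUO (blue) against sham, with genes higher than sham to the right of 0 and lower ones, in paler bars, to the left. In PT cells 3 of 19 p53 targets and 3 of 4 BTG/TOB genes rose in UUO, where 27.9% of all genes did, and in stromal cells 6 of 10 cycling markers rose, where 13.4% did.

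Over the 12 group means of log2(FPKM + 1), the genes with a profile most like that of Cdkn1a were Magoh (Pearson r = 0.962), Trib1 (0.955), Jun (0.953), Nfkb2 (0.952) and Gtf2f2 (0.950), out of 14331 compared. Those most like Ccnd1 were Secisbp2 (0.919), Rinl (0.912), 8430408G22Rik (0.906), Lipe (0.905) and Gm43857 (0.902). These values are a description over 12 groups that share libraries and fall into 4 populations, with no test.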

How the data were processed

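RNA of sorted mouse kidney cells was amplified (Ovation RNA-Seq System V2) before Illumina HiSeq sequencing. The authors deposited FPKM values for 53465 genes on GRCm38, rounded to 2 decimals. The submitters' processing notes name mm10, FastQC, RSEM, Bowtie2 and DESeq2 without versions, and their roles are not given in the sources used here. Strandedness was not stated, so reads of overlapping antisense genes cannot be told apart. Of 46 value columns, 44 were used. The other 2 share the name of a single endothelial UUO sample and could not be assigned. No column was named for the third PT sham sample. FPKM depend on the other transcripts of a sample, so a large mitochondrial share lowers all other genes.

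Groups were compared within each population by limma 3.58.1 in R 4.3.3 (eBayes, trend set) on log2(FPKM + 1). Genes whose mean in the population reached 1 FPKM were tested, with Benjamini-Hochberg adjustment over all genes tested and a threshold of 0.05. Differences between populations were interaction contrasts over all 44 samples. The labels do not tie samples of different populations to a mouse, so p-values measure the spread between the numbered samples. The fit was tested on simulated data. Alternatives were a pseudocount of 0.1, no filter, quantile normalization, rescaling without the 37 mitochondrial genes, the replicate number as a block and leaving out each sample. Sham levels were also rescaled without mitochondrial genes, which was chosen after seeing the data.

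The members and lists were chosen with earlier results of these data known. All members are named, the 2 largest rises and falls past the threshold of each list in the comparisons described in full, and the 5 genes most like Cdkn1a and Ccnd1. A gene that this rule names is not reported here. Sequences came from RefSeq promoters. Python 3.11.15 with numpy 2.4.6, pandas 2.3.3 and matplotlib 3.10.9 was used.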

Additional observations from a re-analysis of the deposited data

Results flagged for a closer look

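In 8 groups of 4 samples, 1 sample lay far from the others, with a gap to the nearest sample, as a share of the group's range, above Dixon's 95% critical value. Of 76 groups examined chance gives about 1 in 20 where values are near normal. That rate does not hold for groups of zeros, where 1 value above 0 has a ratio of 1.0 whatever its size. Cdkn1a in macrophage UUO replicate 2 was low (70.9 FPKM against 195 to 214, ratio 0.913), as was Cdkn1a in stromal rUUO replicate 6 (32.6 FPKM against 90.9 to 93.4, ratio 0.974) and Cdkn1b in stromal UUO replicate 1 (11.3 FPKM against 17.0 to 17.7, ratio 0.907). The other 5 were samples with a low value among zeros or near zeros. Cdkn2a had 1.68 FPKM in macrophage sham replicate 4 (ratio 0.876), 0.27 FPKM in macrophage UUO replicate 4 (ratio 1.0), 0.11 FPKM in endothelial rUUO replicate 6 (ratio 1.0) and 0.80 FPKM in stromal UUO replicate 1 (ratio 1.0), and Gdf15 had 0.15 FPKM in macrophage sham replicate 3 (ratio 1.0).

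In 15 cases the UUO change in PT cells differed from that in another population by the interaction contrast. Of all genes 15.5% passed against macrophages, 11.1% against endothelial cells and 29.2% against stromal cells, with median differences of 0.45, 0.40 and 0.51. The calls of Cdkn1b against macrophages, Trp53 against endothelial cells and Mdm2 against stromal cells were lost under some alternatives, as given above. Against macrophages the differences on the log2 scale were 2.00 for Trp53, 3.56 for Cdkn1a, 1.07 for Cdkn1b and 2.18 for Btg2. Against endothelial cells they were 1.04 for Trp53, 3.70 for Cdkn1a, 1.57 for Cdkn1b, 3.03 for Gdf15 and 2.31 for Btg2. Against stromal cells they were 1.32 for Trp53, 3.54 for Cdkn1a, 0.82 for Mdm2, 1.05 for Ccnd1, 3.67 for Gdf15 and 2.10 for Btg2. The marker sums and mitochondrial shares of PT samples moved with surgery as given above, as did the distal marker sums of macrophages and stromal cells. Distal marker sums of endothelial samples were also lower in most UUO samples than in sham. The part of these shifts in the differences was not tested.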

How the results depend on the processing

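The calls of Trp53, Cdkn1a and Btg2 in both PT comparisons with sham, of Gdf15 in PT UUO and macrophage rUUO, of Btg2 in stromal rUUO and of Ccnd1 in macrophage UUO and all 3 stromal comparisons were made under every alternative run. Without counts, absolute depth is unknown, and values near 0 carry no detection limit. Scaling matters most in PT cells, where all genes shifted by a median of 0.51.

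Counts of genes past the threshold changed as follows. With a pseudocount of 0.1, rUUO against UUO gave 265 genes in PT cells and 4 in endothelial cells. Without the filter, rUUO gave 203 against UUO and 484 against sham in PT cells. In macrophages UUO gave 364 genes with 1 member, and rUUO gave 1 gene against UUO and 303 against sham. In endothelial cells UUO gave 127, and rUUO 0 and 116 in that order. In stromal cells rUUO gave 200 against UUO. Under quantile normalization, UUO against sham gave 2435 genes in PT cells (50% higher, against 85%), rUUO against UUO gave 2 in macrophages and 360 in stromal cells, and the members called were 0 for endothelial rUUO against sham and 1 for stromal UUO against sham. The shares of higher genes went from 87.3% to 68.6% for rUUO against sham and from 17.6% to 58.8% for rUUO against UUO in PT cells, from 79.3% to 61.1% for rUUO against sham in endothelial cells, and in stromal cells from 70.8% to 53.3% (rUUO against UUO) and from 67.6% to 51.5% (rUUO against sham). Rescaling without mitochondrial genes gave 2 genes in macrophage rUUO against UUO and 1 member in stromal UUO against sham. Direction turned under quantile normalization for Mdm2 in PT UUO against sham (−0.0485), Ccng1 in PT rUUO against UUO (0.0631) and Cdkn1b in PT rUUO against sham (−0.0822), and under rescaling for Ccng1 in PT rUUO against UUO (0.0259), none of which passed.

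Within a surgery, samples of the same number from different populations had a median r of 0.00931 over 57 pairs, 2 of them over 0.1. Taken as 1 mouse, they had a consensus correlation of 0.0342. Across surgeries, where mice differ, samples with the same number did not deviate together (median r 0.0128 over 35 pairs, 1 over 0.1), so the number was not taken as a pairing. As a block it gave 160 genes for PT rUUO against UUO, 346 with 1 member and 115 with 1 member for macrophage UUO and rUUO against sham, 101, 0 and 68 with 0 members for endothelial UUO, for endothelial rUUO set against UUO and for the latter set against sham, and 116 and 1574 for stromal rUUO against UUO and against sham. Under the block the calls of Btg2 in macrophage rUUO (adjusted p = 0.0703), endothelial rUUO (0.2), Ccnd1 in macrophage rUUO (0.152), Gdf15 in macrophage UUO (0.0859) and Trp53 in stromal rUUO (0.124) were lost.

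Leaving out samples in turn gave 566 to 693 genes for PT rUUO against sham and 121 to 256 for PT rUUO against UUO. In macrophages it gave 272 to 736 genes and 1 to 4 members for UUO against sham, 0 to 15 genes for rUUO against UUO and 207 to 348 for rUUO against sham. In endothelial cells it gave 146 to 229 genes and 0 to 1 members for UUO against sham, 3 to 10 genes for rUUO against UUO, and 119 to 259 genes and 0 to 1 members for rUUO against sham. In stromal rUUO against UUO it gave 289 to 768 genes and 1 to 2 members. The changes of Gdf15 in PT rUUO against UUO (−0.69 to 0.0626) and of Ccng1 in PT rUUO against sham (−0.0764 to 0.33) changed sign. The cause of these shifts was not tested.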
